A study of Mus musculus with 7 samples.

Results

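Pseudogene entries are array features whose gene symbol ends in -ps or in -ps and a number, the mark used for a mouse pseudogene of a named gene family. Symbols of ribosomal proteins, histones, T cell receptors, immunoglobulins, olfactory receptors and vomeronasal receptors were left out, which gave 118 entries among the 9294 genes with 1 symbol. The other 161 of the 279 entries with such symbols belonged to the families left out. Expression was measured on Affymetrix microarrays in total RNA of whole fat tissue from wild-type C57 male mice, 4 samples of paracardial fat (fat beside the heart) and 3 of intra-abdominal fat. The mice carried no transgene and received no treatment that the labels name, and the labels give no age. Each sample is called a biological replicate, but nothing says whether it came from 1 animal or from pooled animals, so p-values measure only the spread between these samples. The comparison of the depots asks which entries have more or less signal in paracardial fat.

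A processed pseudogene arises when a messenger RNA is copied into DNA and inserted elsewhere in the genome, without introns and usually without its own promoter. Genes with abundant messenger RNA in the germ line, among them those for chromatin proteins, chaperones and translation factors, have left many such copies. Because a recent copy still resembles its parent, an array probe designed for the copy could share signal with the parent or with other copies, so which copy gave the signal of an entry is uncertain throughout. Of the 118 entries, 116 were found by symbol in the RefSeq gene table (assembly GRCm38.p6), which listed 99 as pseudogenes, 15 as transcribed pseudogenes, 1 (Defa-ps8) as protein coding and 1 (Xlr4d-ps) as a long noncoding RNA. Their median genomic span was 1439.5 bases, against 16739 bases for 65 parent genes found in the same table. Not every entry need be a processed copy. Mup-ps1 spanned 65535 bases, and Gpr137b-ps spanned 36331 bases, against 36025 for Gpr137b. How each entry arose was not examined. The entries fell into 93 families, 11 of them with more than 1 entry.

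All 7 arrays held values on the log2 scale, and the array median lay between 6.005 and 6.368 in paracardial fat and between 5.995 and 6.115 in intra-abdominal fat. Paracardial array 4 and intra-abdominal array 3 shared a highest value of 19.93, while the other 5 arrays ended at 19.81 to 19.84, so the arrays formed 2 sets by their ceiling. The tissue labels were set against cell type markers. The 10 measured adipocyte genes had array medians of 6.08, 6.24, 9.44 and 9.70 in paracardial fat, against 14.8, 14.7 and 16.2 in intra-abdominal fat, and on paracardial arrays 1 and 2 their median was close to the array's own. The 6 measured thymocyte genes had medians of 10.03, 9.76, 11.08 and 12.46 in paracardial fat, against 8.13, 6.08 and 5.47 in intra-abdominal fat. Those of 6 thymic epithelial and epithelial genes were 11.31, 11.03, 11.42 and 11.93, against 8.11, 6.39 and 5.37. Of 10 cell cycle genes, 2 were measured, Kif11 and Rrm2, and both were higher in paracardial fat. In all, 7 of the 10 adipocyte genes were lower, 4 of 6 thymocyte and 4 of 6 epithelial genes were higher, and none of 3 B cell genes was called by limma. The lowest adipocyte value was 4.88, and no marker was listed at 0. These lists, B cells apart, moved with the depot and therefore with every difference below, and their part in those differences was not tested. In whole tissue, fewer cells of a type and less RNA per cell cannot be told apart.

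Of the 118 entries, 16 were higher and 2 were lower in paracardial fat. A call here means a Benjamini-Hochberg adjusted p under 0.05 over all 9294 genes in limma's moderated test. The 18 calls made up 15.3% of the entries, against 9.16% of all genes tested. The higher calls made up 13.6% of the entries against 6.25% of all genes, and the lower calls 1.69% against 2.91%. The median difference over the entries, paracardial minus intra-abdominal fat, was 0.41 on the log2 scale, against 0.13 over all genes, and 87 differences were positive and 31 negative. For 37 entries the 2 depots had no overlapping arrays, which is 31.4%, against 26.7% of all genes. Copies of 1 family are not independent. With only the brightest entry of each family kept, 11 of 93 families were called, which is 11.8%, with 9 higher and 2 lower. The split of 16 higher and 2 lower depended on how the arrays were scaled, and so did its distance from the background. It was 14 and 5 with each array centred on its median, where 16.1% of the entries and 9.82% of all genes were called. It was 9 and 6 after cyclic loess (12.7% against 11.2%) and 8 and 5 after a further quantile normalization (11.02% against 9.12%). After cyclic loess the lower calls made up 5.08% of the entries and 5.70% of all genes.

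Most calls belonged to families of abundant nuclear, folding and modifier proteins, as the plot of differences by role shows. Among 18 entries of DNA replication and chromatin families, 8 were higher and none lower, with a median difference of 1.36. Of these 8, 5 were Hmgb1 copies with nearly the same profile. Protein folding, modification and turnover gave 5 higher of 13, with a median of 0.87, and 3 of these 5 were Smt3h2 copies. The counts by role are therefore counts of entries that are partly not independent. RNA processing and translation gave 1 higher of 10, with a median of 0.73. Cytoskeleton, signalling and trafficking gave 1 higher and 1 lower of 26, with a median of -0.0012. Metabolism and mitochondria gave no higher and 1 lower call of 25, with a median of 0.31. None of 15 entries of immune and secreted families was called, and the 11 entries of other families gave 1 higher. Over all genes 9.16% were called, so an absence of calls among so few entries is no result. The role groups were assigned after the values had been seen, so their counts are a description. Genes and entries named beyond the calls, the pairs and the 5 largest remaining differences in each direction were also chosen after their values were seen.

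**Figure D1:**
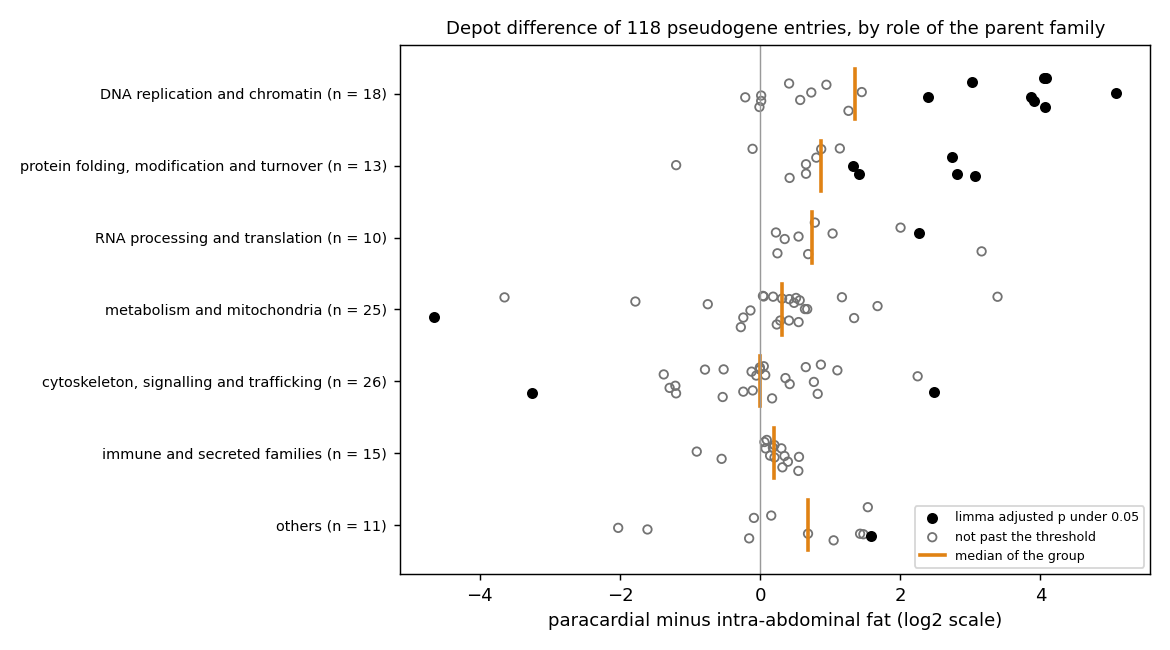
Depot difference (paracardial minus intra-abdominal fat, log2 scale) of each of the 118 pseudogene entries, grouped by the known role of the parent family; filled points passed limma's adjusted p under 0.05, open points did not, and the orange bar is the group's median. The median lies at 1.36 for DNA replication and chromatin and near 0 for cytoskeleton, signalling and trafficking. Copies of a family are drawn as separate points, though they are not independent.

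Pcna-ps2 had the largest positive difference of the entries. Its family gene Pcna encodes the sliding clamp that holds DNA polymerase on the template during replication. Values were 14.80, 14.65, 15.91 and 16.93 on the paracardial arrays, against 11.33, 9.38 and 10.77 on the intra-abdominal arrays. Every paracardial array lay more than 3 log2 units above the highest intra-abdominal one. The difference was 5.08 ± 0.70 (SE, n = 4 and 3, 95% interval 3.40 to 6.77, limma adjusted p = 0.0125). Among arrays with the lower ceiling it was 4.77, and it was 6.16 between the 2 arrays of the higher ceiling, and the call held whichever single array was left out. Pcna itself was not analysed here. Among genes that act beside the clamp, chosen after their values were seen, Rfc4, a subunit of the clamp loader, was higher by 3.10 ± 0.31 (limma adjusted p = 0.00818). Mcm3, a subunit of the replicative helicase, was higher by 2.81 (limma adjusted p = 0.0414). When single arrays were left out, its call held only without paracardial array 4. Mcm2 and Mcm5, of the same helicase, differed by 2.75 and 3.16 (adjusted p = 0.0711 and 0.0510), and the flap endonuclease Fen1 by 0.63 (adjusted p = 0.137).

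All 5 Hmgb1 entries were higher in paracardial fat. HMGB1 is an abundant protein that bends DNA in chromatin and acts as an alarm signal when it leaves the cell. Hmgb1-ps2 had values of 18.98, 18.49, 19.12 and 19.14 in paracardial fat, against 16.19, 14.12 and 14.79 in intra-abdominal fat. Its difference was 3.90 ± 0.49 (limma adjusted p = 0.0106). Hmgb1-ps3 followed it closely, with 18.90, 18.28, 18.96 and 19.03 against 16.03, 13.57 and 14.63, a difference of 4.05 ± 0.57 (limma adjusted p = 0.0129). The paracardial arrays of both entries lay within 1 log2 unit of each other, while the intra-abdominal arrays were spread over more than 2.

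The other 3 Hmgb1 entries carried nearly equal values on each array. Hmgb1-ps1 had 15.75, 15.40, 15.79 and 15.77 in paracardial fat, against 12.86, 10.53 and 11.41 in intra-abdominal fat. The differences were 4.08 ± 0.52 for Hmgb1-ps1, 4.07 ± 0.52 for Hmgb1-ps4 and 3.87 ± 0.60 for Hmgb1-ps9 (limma adjusted p = 0.0106, 0.0106 and 0.0171). On any 1 paracardial array these 3 entries lay within 0.259 of each other, and on any 1 intra-abdominal array within 0.626. The pair of Hmgb1-ps2 and -ps3 lay within 0.216 and 0.551 in the same way. The RefSeq table lists the 5 entries on 4 chromosomes, yet their profiles across arrays were nearly the same. Whether each locus gave its own signal was not tested. Once each entry was centred on its own mean, the 5 were never more than 0.383 apart on an array. Hmgb1-ps1, -ps2 and -ps4 kept the call whichever single array was left out, whereas Hmgb1-ps3 and -ps9 lost it without paracardial array 1 (adjusted p = 0.0512 and 0.0595).

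Relatives of the family, named after their values were seen, also had positive differences. Hmgb2, a paralogue enriched in dividing cells, had 9.74, 9.17, 10.70 and 11.57 in paracardial fat, against 7.43, 6.35 and 5.61 in intra-abdominal fat, a difference of 3.83 ± 0.68 (limma adjusted p = 0.0212). The Hmgb1-related loci Hmgb1-rs17 and Hmgb1l were called at differences of 1.87 and 1.38 (adjusted p = 0.0184 and 0.0378). Hmgb1-rs18 differed by 1.56 (adjusted p = 0.0974) and Hmgb3 by 0.92 (adjusted p = 0.134). Calls were lost on leaving out some single array for Hmgb2, with adjusted p up to 0.0891, for Hmgb1-rs17, up to 0.0786, and for Hmgb1l, up to 0.147. Hmgb1 itself was not analysed here.

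**Figure D2:**
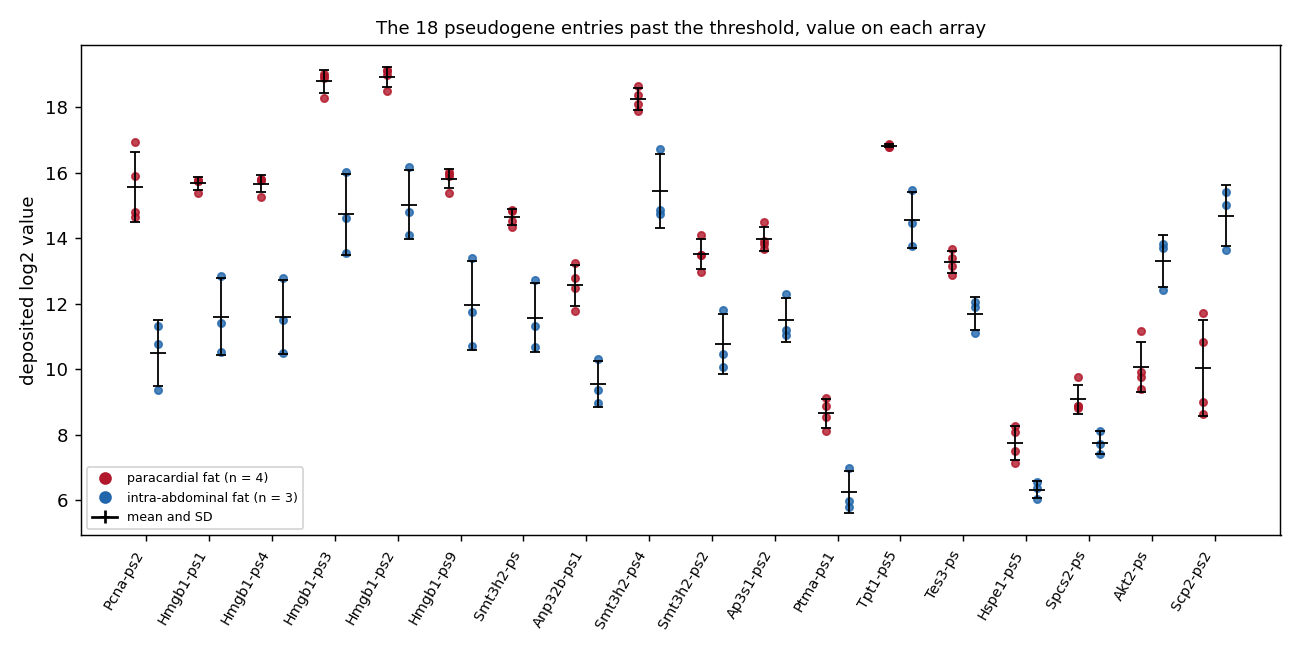
Deposited log2 value (vertical axis) of the 18 entries past the threshold on each array, with paracardial fat (4 points) to the left of intra-abdominal fat (3 points) for each entry and bars for mean and SD. The paracardial points lie above all intra-abdominal points for 16 entries and below them for Akt2-ps and Scp2-ps2.

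Another pair of chromatin entries was called. ANP32B is an acidic histone chaperone, and Anp32b-ps1 had 12.78, 11.77, 12.47 and 13.25 in paracardial fat, against 10.32, 8.97 and 9.35 in intra-abdominal fat, a difference of 3.02 ± 0.46 (limma adjusted p = 0.0153). Prothymosin alpha, the product of Ptma, is a small acidic nuclear protein first purified from the thymus. Ptma-ps1 had 9.11, 8.88, 8.10 and 8.54 in paracardial fat, against 6.996, 5.79 and 5.99 in intra-abdominal fat, a difference of 2.40 ± 0.38 (limma adjusted p = 0.0178). In both entries the groups were separated by more than 1 log2 unit. The call of Anp32b-ps1 was lost without paracardial array 1 or intra-abdominal array 2 (adjusted p = 0.0565 and 0.0660), and that of Ptma-ps1 without paracardial array 1 or 2 or intra-abdominal array 2 (adjusted p = 0.0588, 0.0524 and 0.0746).

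The other 10 entries of the chromatin group were not called. Smarca5-ps, of a chromatin remodelling ATPase, differed by 0.95 with no overlap of the depots (adjusted p = 0.0658), Anp32-ps by 1.45 (adjusted p = 0.360) and Kansl2-ps by 1.26 (adjusted p = 0.165). Trp53-ps, of the p53 tumour suppressor, differed by 0.57 (adjusted p = 0.630). The 3 Spin2 entries, of a histone-reading spindlin, lay between -0.21 and 0.02. Spin2-ps3 and -ps4 carried the same value on every array, so they count as 1 measurement.

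The protein folding and modification calls came from SUMO, a chaperonin and a signal peptidase. Smt3h2 is the older symbol of Sumo2 in the RefSeq table, which encodes a small ubiquitin-like protein that is attached to other proteins, and its 3 entries stand on 3 chromosomes. Smt3h2-ps4 had 18.37, 18.11, 17.88 and 18.66 in paracardial fat, against 14.73, 14.87 and 16.74 in intra-abdominal fat, a difference of 2.80 ± 0.52 (limma adjusted p = 0.0241). Smt3h2-ps had 14.87, 14.83, 14.35 and 14.55, against 11.33, 10.67 and 12.74, a difference of 3.07 ± 0.48 (limma adjusted p = 0.0174). Smt3h2-ps2 had 14.11, 13.50, 12.98 and 13.49, against 10.46, 10.06 and 11.81, a difference of 2.74 ± 0.47 (limma adjusted p = 0.0202).

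In all 3 SUMO entries intra-abdominal array 3 stood above the other intra-abdominal arrays by more than 1 log2 unit. Within the arrays of the lower ceiling the differences were 3.32, 3.68 and 3.27 for Smt3h2-ps4, -ps and -ps2, and between the 2 arrays of the higher ceiling they were 1.91, 1.81 and 1.68. Smt3h2-ps4 kept its call without intra-abdominal array 3, and leaving out any other single array gave adjusted p of 0.0564 to 0.102. Smt3h2-ps lost it without paracardial array 1 or 2 or intra-abdominal array 2 (adjusted p = 0.0605, 0.0520 and 0.0554), and Smt3h2-ps2 without those arrays or intra-abdominal array 1 (adjusted p of 0.0548 to 0.0794). After a further quantile normalization none of the 3 was called (adjusted p of 0.160 to 0.418). Smt3h2-ps2 lies inside the span of Zfp764, a zinc finger gene, whose own difference was 0.52 (adjusted p = 0.185).

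**Figure D3:**
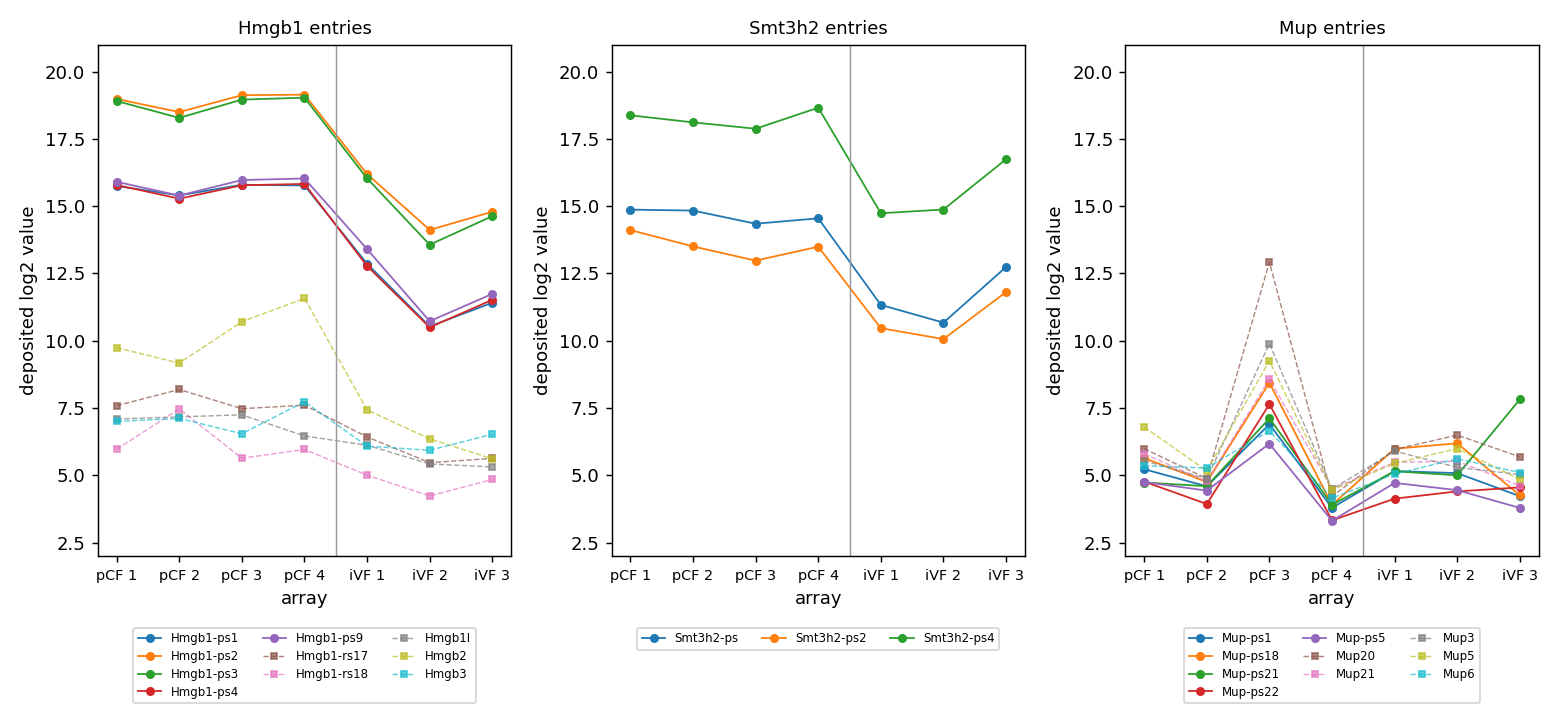
Deposited log2 value (vertical axis) on each of the 7 arrays for the entries of 3 multi-copy families (solid lines) and measured relatives (dashed lines); lines only trace an entry across arrays, and the grey line separates paracardial (pCF) from intra-abdominal (iVF) arrays. The Hmgb1 entries run parallel across the arrays, as do the 3 Smt3h2 entries, while each Mup entry has its highest paracardial value on array 3.

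Hspe1-ps5 and Spcs2-ps had the smallest called differences. HSPE1 is the small partner of the mitochondrial chaperonin, and Hspe1-ps5 had 8.09, 7.49, 8.25 and 7.13 in paracardial fat, against 6.04, 6.57 and 6.37 in intra-abdominal fat, a difference of 1.42 ± 0.33 (limma adjusted p = 0.0452). A further entry of the family, Hspe1-ps2, differed by 0.80 (adjusted p = 0.257), and Hspd1, which encodes the large chaperonin subunit, by 0.27 (adjusted p = 0.499). Spcs2-ps, of a subunit of the signal peptidase that trims secreted proteins, had 9.75, 8.89, 8.82 and 8.89 against 7.73, 7.41 and 8.12, a difference of 1.33 ± 0.31 (limma adjusted p = 0.0463). Leaving out single arrays kept each call in 1 of 7 cases, with adjusted p up to 0.119 for Hspe1-ps5 and up to 0.170 for Spcs2-ps, so both sat at the edge of the threshold.

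Tpt1-ps5 was the only called entry of the translation group. TPT1, the translationally controlled tumour protein, is an abundant cytosolic protein linked to growth. Its values were 16.79, 16.79, 16.84 and 16.88 in paracardial fat, against 14.46, 13.75 and 15.46 in intra-abdominal fat, a difference of 2.27 ± 0.39 (limma adjusted p = 0.0198). The 4 paracardial arrays agreed within 0.1, a spread far below that of the intra-abdominal arrays. Tpt1-ps3, an entry of the same family, had 17.94 to 18.05 in paracardial fat and 17.37 to 17.97 in intra-abdominal fat, a difference of 0.23 ± 0.20 (adjusted p = 0.557), and whether the 2 entries differ from each other was not tested. When single arrays were left out, Tpt1-ps5 kept its call only without paracardial array 4 or intra-abdominal array 3. It was called in 10 of the 20 alternatives tried, and after quantile normalization its limma adjusted p was 0.580.

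The remaining higher calls were Ap3s1-ps2 and Tes3-ps. AP3S1 is the small subunit of an adaptor complex that sorts cargo to lysosomes, and Ap3s1-ps2 had 13.93, 14.50, 13.83 and 13.67 in paracardial fat, against 11.19, 11.04 and 12.29 in intra-abdominal fat, a difference of 2.48 ± 0.37 (limma adjusted p = 0.0150). It was not called without paracardial array 1 or intra-abdominal array 2 (adjusted p = 0.0549 and 0.0656) or after quantile normalization (adjusted p = 0.247). Tes3-ps had 13.15, 12.88, 13.66 and 13.39 against 12.06, 11.12 and 11.89, a difference of 1.58 ± 0.31 (limma adjusted p = 0.0275). Its groups were separated, but when single arrays were left out it kept the call only without intra-abdominal array 1 or 3. It was called in 9 of the 20 alternatives and reached a limma adjusted p of 0.264 after quantile normalization.

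Scp2-ps2 and Akt2-ps were the lower calls. SCP2 is a carrier and thiolase that handles sterols and branched fatty acids in peroxisomes. Scp2-ps2 had 8.62, 8.99, 10.83 and 11.72 in paracardial fat, against 13.65, 15.02 and 15.41 in intra-abdominal fat, a difference of -4.65 ± 0.86 (limma adjusted p = 0.0239). AKT2 is the kinase that carries much of the insulin signal in fat and muscle. Akt2-ps had 9.77, 9.40, 9.92 and 11.17, against 12.41, 13.83 and 13.72, a difference of -3.25 ± 0.54 (limma adjusted p = 0.0184). Paracardial arrays 1 and 2 were lowest for Scp2-ps2, as for the adipocyte gene median given above. When single arrays were left out, the call of Scp2-ps2 held only without paracardial array 4 or intra-abdominal array 1. That of Akt2-ps was lost without paracardial array 1, 2 or 3 or intra-abdominal array 2 (limma adjusted p of 0.0520 to 0.0799). With paracardial arrays 1 and 2 left out together, none of the 18 calls held, and adjusted p ran from 0.0902 for Pcna-ps2 to 0.200 for Hspe1-ps5, while each difference kept its sign.

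The parent was taken as the gene whose symbol precedes -ps, and it was measured for 14 of the 118 entries. A search by older symbols added 6 further pairs, given after these. The depot differences of entry and parent were compared within arrays. Over all 42 such pairs of the table, ribosomal pairs included, 17 differed at an adjusted p under 0.05, which is 40.5%. None of the 14 pairs did by limma, with 1 at an unadjusted p under 0.05, and all 17 were among the other 28. With sign kept, the entry's difference was the more positive in 13 of the 14 pairs and the more negative in 1. Their gap, entry minus parent, had a median of 0.40 and a range of -0.69 to 0.97. In the 6 pairs added by older symbols every gap was negative. A positive gap does not mean a larger change in the entry, since several parents had negative differences of greater size. Entry and parent had the same sign in 10 of the 14 pairs and opposite signs in 4. The intervals were wide, so a p above the threshold does not show that entry and parent moved alike.

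Both called entries with a measured parent had a parent with a positive difference. Ap3s1 had 14.39, 13.59, 15.05 and 14.37 in paracardial fat, against 12.47, 11.84 and 13.42 in intra-abdominal fat, a difference of 1.77 ± 0.47 (limma adjusted p = 0.0678). The difference of Ap3s1-ps2 exceeded it by 0.70 ± 0.49 (95% interval -0.44 to 1.84, limma adjusted p = 0.299). Spcs2 had 10.78, 10.13, 10.26 and 11.34 against 9.32, 9.54 and 9.87, a difference of 1.05 ± 0.34 (adjusted p = 0.112). Spcs2-ps exceeded it by 0.28 ± 0.39 (95% interval -0.63 to 1.18, limma adjusted p = 0.551).

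Slc39a1, a zinc transporter of the cell surface, was the only parent called. It had 8.54, 8.19, 9.53 and 9.46 in paracardial fat, against 10.38, 10.83 and 11.60 in intra-abdominal fat, a difference of -2.004 ± 0.45 (limma adjusted p = 0.0425). Slc39a1-ps had 6.01, 6.27, 6.95 and 7.71 against 7.62, 7.82 and 9.58, so its groups overlapped, with a difference of -1.61 ± 0.61 (adjusted p = 0.166). Entry minus parent was 0.40 ± 0.37 (95% interval -0.45 to 1.24, adjusted p = 0.405). The call of Slc39a1 was lost on removing any single array, with adjusted p of 0.0548 to 0.137.

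**Figure D4:**
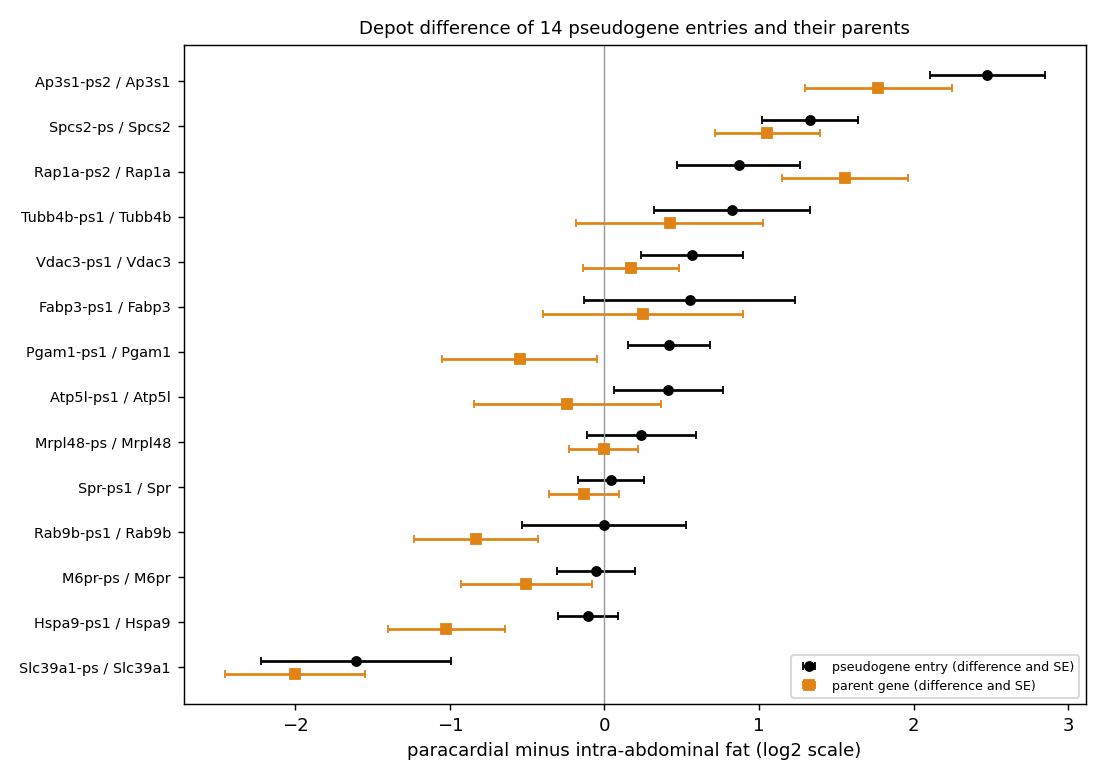
Depot difference (paracardial minus intra-abdominal fat, log2 scale) with its SE for 14 pseudogene entries (black circles) and their parents (orange squares), 1 row a pair. The entry lies to the right of its parent in 13 rows and to the left for Rap1a-ps2.

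Beside Ap3s1-ps2, the widest gaps in these pairs came from a glycolytic enzyme, a chaperone and 2 small GTPases. Pgam1-ps1, of the phosphoglycerate mutase, differed by 0.42 and Pgam1 by -0.55, a gap of 0.97 ± 0.59 (95% interval -0.40 to 2.33, adjusted p = 0.231). Hspa9-ps1, of the mitochondrial HSP70, differed by -0.11 and Hspa9 by -1.02, a gap of 0.92 ± 0.47 (adjusted p = 0.162). Rab9b-ps1, of a small GTPase of late endosomes, differed by -0.0022 and Rab9b by -0.83, a gap of 0.83 ± 0.35 (95% interval 0.02 to 1.63, adjusted p = 0.0898). Both of these gaps set a bright probe against a dim one. Hspa9-ps1, at 5.33 to 5.75, lay below the median of every array. Rab9b did so on every array but intra-abdominal array 3, where it had 6.65. Rap1a-ps2, of a small GTPase that controls adhesion, differed by 0.87 and Rap1a by 1.56, the only negative gap of the 14, at -0.69 ± 0.53 (adjusted p = 0.340). Rap1a had 11.39, 11.20, 11.12 and 11.25 in paracardial fat, against 9.27, 9.06 and 10.71 in intra-abdominal fat.

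The other 7 pairs had gaps of 0.18 to 0.65 and no called gene. Atp5l-ps1, of a subunit of the mitochondrial ATP synthase, differed by 0.41 and Atp5l by -0.24. M6pr-ps, of the mannose 6-phosphate receptor, differed by -0.05 and M6pr by -0.51. Tubb4b-ps1, of a beta tubulin, differed by 0.82 and Tubb4b by 0.42. Vdac3-ps1, of a channel of the outer mitochondrial membrane, differed by 0.57 and Vdac3 by 0.17. Fabp3-ps1, of a fatty acid binding protein of heart muscle, differed by 0.55 and Fabp3 by 0.25. Mrpl48-ps, of a mitochondrial ribosome protein, differed by 0.24 and Mrpl48 by -0.0062. Spr-ps1, of sepiapterin reductase, differed by 0.04 and Spr by -0.13. Adjusted p for each of these 7 entries and their parents was 0.367 or more.

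Older symbols in the RefSeq table gave a parent for Plk-ps1 and a family gene for the 5 Mup entries. This search was added after the data had been seen. Plk is the older symbol of Plk1, the kinase that drives cells through mitosis. Plk1 had 10.09, 10.16, 9.78 and 11.69 in paracardial fat, against 8.15, 5.99 and 6.03 in intra-abdominal fat, a difference of 3.71 ± 0.69 (limma adjusted p = 0.0246, lost without single arrays at up to 0.104). Plk-ps1 had 4.96, 5.45, 5.09 and 6.11, against 4.60, 4.74 and 4.56, a difference of 0.77 ± 0.31 (adjusted p = 0.183). The groups of both were separated, and the parent's difference was much the larger. The gap was -2.94 ± 0.57 (95% interval -4.26 to -1.62, limma adjusted p = 0.0101 over 48 pairs, of which 18 were called, or 37.5%). It kept its call on removing any single array, with adjusted p of 0.00102 to 0.0403, but not with paracardial arrays 1 and 2 removed together (adjusted p = 0.0839). Plk-ps1 lay among the dimmest 25% of genes by mean value. The Mup entries were set against Mup21, which the table lists under the family name. Their gaps ran from -1.60 to -0.15 with limma adjusted p of 0.204 or more. Mup3, Mup5, Mup6 and Mup20 were measured too, so Mup21 need not be the parent of any of these entries.

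Among entries past no threshold, 2 of the 5 largest positive differences came from paracardial arrays 1 and 2. Amd-ps4 belongs to the family of the decarboxylase that feeds polyamine synthesis. It had 14.97, 14.60, 9.16 and 9.24 in paracardial fat, against 8.33, 8.65 and 8.83 in intra-abdominal fat, a difference of 3.39 ± 1.66 (adjusted p = 0.279). Arrays 1 and 2 stood more than 5 log2 units above the rest, and without them the difference was 0.59 (adjusted p = 0.326). Amd2, a gene of the same family, showed no such split, with 7.14, 7.18, 6.93 and 7.38 in paracardial fat, against 7.16, 7.02 and 7.03 in intra-abdominal fat.

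Eif5al3-ps showed the same split to a smaller extent. Its family encodes a translation factor that helps ribosomes past difficult peptide stretches. It had 16.78, 17.17, 13.36 and 14.16 in paracardial fat, against 11.80, 11.65 and 13.17 in intra-abdominal fat, a difference of 3.16 ± 1.04 (adjusted p = 0.117). Without arrays 1 and 2 it was 1.56 (adjusted p = 0.276). Eif5a differed by 0.37 (adjusted p = 0.472). The median of every measured marker list was lower on arrays 1 and 2 than on 3 and 4, opposite in direction to Amd-ps4 and Eif5al3-ps. Adipocyte medians were 6.08 and 6.24 against 9.44 and 9.70, and thymocyte medians 10.03 and 9.76 against 11.08 and 12.46. Whether the entries and the lists are linked was not tested.

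**Figure D5:**
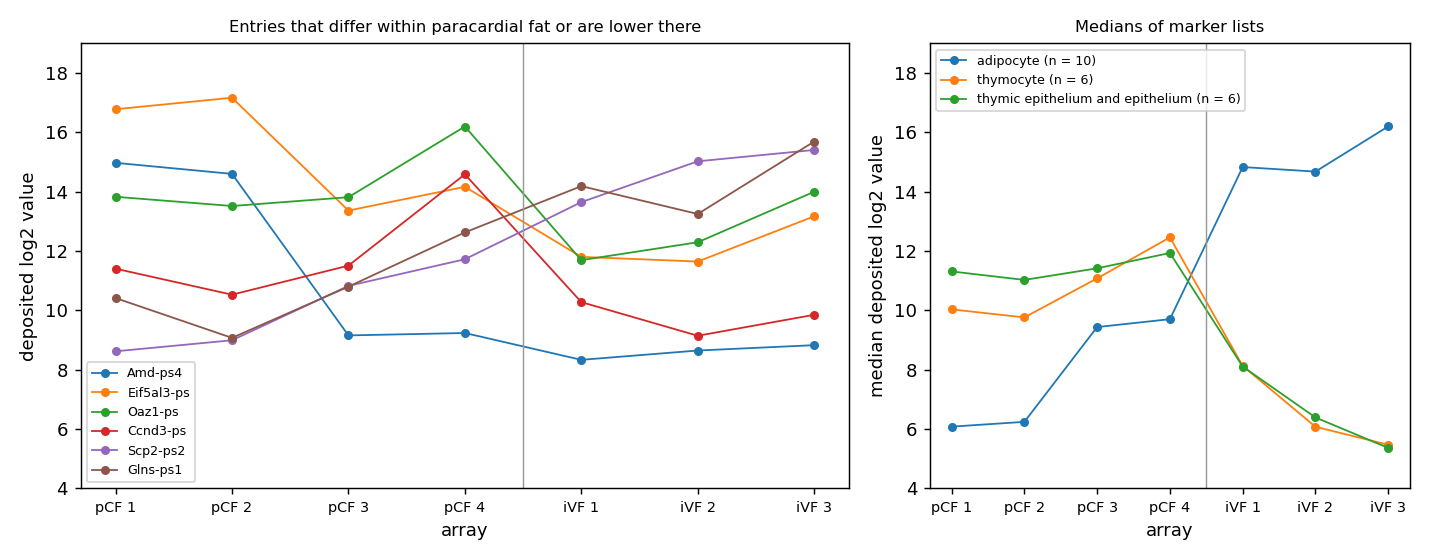
Left, deposited log2 value of entries with large differences on each array; right, median value of 3 marker lists on the same arrays (lines only trace an entry or list, and the grey line separates the depots). Amd-ps4 and Eif5al3-ps are high on paracardial arrays 1 and 2, where the adipocyte median is 6.08 and 6.24. The thymocyte median on these arrays is 10.03 and 9.76, also below that on paracardial arrays 3 and 4.

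The other 3 of these 5 were Ccnd3-ps, Hnrnpa1l2-ps and Oaz1-ps. Ccnd3-ps, of cyclin D3, which drives entry into the cell cycle, had 11.41, 10.53, 11.51 and 14.59 in paracardial fat, against 10.28, 9.15 and 9.85 in intra-abdominal fat, a difference of 2.25 (adjusted p = 0.209). Hnrnpa1l2-ps, of an RNA-binding protein family, had 9.72, 8.36, 8.03 and 7.47 against 7.16, 5.75 and 6.26, a difference of 2.01 (adjusted p = 0.0896). Oaz1-ps, of the antizyme that limits polyamine synthesis, had 13.83, 13.52, 13.81 and 16.20 against 11.69, 12.30 and 13.999, a difference of 1.68 (adjusted p = 0.280). Paracardial array 4 alone was high for Ccnd3-ps and Oaz1-ps, and the depots did not overlap for the first 2 of the 3.

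Among entries with neither a call nor a parent in the pairs, the 5 largest negative differences belonged to 2 metabolic families, a globin and 2 trafficking families. Glns is the older symbol of Glul, the glutamine synthetase gene, and Glns-ps1 had 10.42, 9.07, 10.80 and 12.63 in paracardial fat, against 14.19, 13.25 and 15.69 in intra-abdominal fat. Its difference of -3.65 ± 0.92 missed the threshold (adjusted p = 0.0579), although the groups did not overlap, and it was called in 8 of the 20 alternatives tried. Gstp-ps, of a glutathione transferase, had 6.96, 7.09, 8.30 and 8.79 against 9.16, 9.66 and 9.87, a difference of -1.78 (adjusted p = 0.0818). Gstp1 of the same family differed by -1.64 (adjusted p = 0.249). Hba-ps4, of alpha globin, had 5.49, 4.92, 6.97 and 6.34 against 7.56, 8.78 and 7.53, a difference of -2.02 (adjusted p = 0.0787). Vma21-ps, of an assembly factor of the vacuolar proton pump, differed by -1.37 (adjusted p = 0.205), and Tmed10-ps, of a cargo receptor of the early secretory pathway, by -1.29 (adjusted p = 0.563).

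Several multi-copy families had no call. The 5 Defa entries, of the intestinal defensin cluster, differed by 0.06 to 0.55. The 5 Ppp1r2 entries, of an inhibitor of protein phosphatase 1, differed by -0.53 to 0.17. The 5 Mup entries, of the major urinary proteins made by the liver, differed by -0.90 to 0.56. Each Mup entry had its highest paracardial value on array 3, at 6.17 to 8.44. The coding gene Mup20 had 5.99, 4.88, 12.92 and 4.21 in paracardial fat, against 5.96, 6.49 and 5.68 in intra-abdominal fat, and Mup3, Mup5, Mup6 and Mup21 were highest on paracardial array 3 as well. Mup-ps21, which lies inside the span of Mup20, was highest on intra-abdominal array 3, at 7.82, where Mup20 was at 5.68.

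A few further entries are described here. Xlr4d-ps and Xlr4e-ps, of an X-linked lymphocyte-regulated family, differed by 1.54 and 1.48 (adjusted p = 0.0930 and 0.0928) and lay within 0.351 of each other on every array. Actg-ps1, of cytoplasmic gamma actin, sat at the ceiling on all 7 arrays, as did Actb, so its difference cannot be read.

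The position and annotation of the called entries were various. They lay on 10 chromosomes, with spans of 339 to 2867 bases, and each was listed as a plain pseudogene. None of the 15 transcribed pseudogenes was called by limma, but so few entries cannot be told from the 9.16% called over all genes. Their median difference was 0.14, with a range of -1.29 to 1.68, against 0.13 over all genes and 0.49 for the 99 plain ones. Whether the annotation classes differ was not tested. Of all entries, 18 lay inside the span of a coding gene, and that gene was measured for 4 of them. Tmed10-ps differed by -1.29 and its enclosing gene Lyrm4 by 0.37, and Mrto4-ps1 by 0.69 and Gm10479 by 0.21, none of them called. Of the 118 entries, 81 were above the dimmest 25% of genes on all arrays and 8 were within it on all arrays. None of those 8 was called, and they were too few to set against the share over all genes.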

How the data were processed

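For every probe the authors deposited log2 values; RMA and the Affymetrix Expression Console are the tools named per the submitters' processing notes. Neither a version nor a genome build is given in the sources used here. Scale and centring of the deposited log2 values, and the reason for the ceiling, are unknown, and the number of arrays limits the precision. All 7 columns were matched to samples by name. Of 11949 probes, 9352 had 1 gene symbol in the platform annotation, 522 had several and 2075 had none. Entrez identifiers of 5789 probes matched RefSeq (GRCm38.p6, used for names, spans and neighbours) and changed 188 symbols, while entries kept the platform's symbol. For 52 genes the brightest probe was kept, which left 9294 genes, with no filter on low values.

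Differences are paracardial minus intra-abdominal fat from limma 3.58.1 in R 4.3.3 (lmFit, eBayes, two-sided), with Benjamini-Hochberg adjustment over all genes and a threshold of 0.05. Entry minus parent was fitted the same way over 42 pairs and adjusted over them. A fit over 48 pairs, with Plk1 and Mup21 found by older symbols, was an alternative added after the data were seen. Values closer than 0.1 to the top value of their array were taken as at the ceiling. The script was tested on simulated data. Each replicate was left out in turn, and scaling, filter, eBayes settings, array weights, array set, ceiling, probe choice and a replicate block were varied. Named entries were those called, those with a measured parent, and of the others the 5 with the largest difference in each direction; all other names were chosen after their values were seen. The entries and lists were chosen with earlier results of these data known. Figures used Python 3.11.15 and matplotlib 3.10.9.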

Additional observations from a re-analysis of the deposited data

Results flagged for a closer look

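Of 79 named or family entries and parents checked on the 4 paracardial arrays, 15 had 1 array far from the other 3. Far means a gap over range above Dixon's 95% critical value, which chance exceeds in about 1 in 20 independent cases. Copies of a family are not independent, and the share over all genes was not computed. The 15 flags are therefore a description, not a sign that these entries were unusual. Intra-abdominal fat had 3 arrays and was not checked.

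Paracardial array 4 was the highest for 5 of them. Oaz1-ps had 16.20 there, against 13.52 to 13.83 on the other 3. The parents Atp5l (12.51, others 11.25 to 11.36), Pgam1 (10.94, others 10.24 to 10.33), Tubb4b (10.13, others 7.97 to 8.16) and Mrpl48 (6.41, others 5.918 to 5.997) were high there as well. It was the only paracardial array of the higher ceiling.

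Paracardial array 2 was the lowest for the Hmgb1 entries, with 15.40 for Hmgb1-ps1, 18.28 for Hmgb1-ps3 and 15.28 for Hmgb1-ps4, and each of these lay above every intra-abdominal array. The same array was lowest for Ppp1r2-ps1, at 6.59 (others 7.77 to 7.86), and Ppp1r2-ps6, at 6.93 (others 7.996 to 8.195).

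Paracardial array 3 was high for Spin2-ps3 and Spin2-ps4, which share all values, at 5.03 (others 4.76 to 4.79), and low for the parent Spr, at 5.75 (others 6.26 to 6.36). Paracardial array 1 was high for Spcs2-ps, at 9.75 (others 8.82 to 8.89), and low for Alms1-ps1, at 4.68 (others 5.32 to 5.38).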

How the results depend on the processing

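The count of called entries was 18 (16 higher, 2 lower), beside 851 over all genes, and did not always move with that number. It was 62 with array weights (3614 of all genes), which did not reach the convergence tolerance, 31 with array set as a block (1654), and 0 by limma with paracardial arrays 1 and 2 left out together (1), where 29 entries and 1751 genes had an unadjusted p under 0.05. Leaving out 1 replicate gave 4 to 17 entries (185 to 833 of all genes). The count of entries was 13 after quantile normalization (8 and 5, with 848 of all genes) and 19 with arrays centred (14 and 5, with 913). After cyclic loess it fell to 15 (9 and 6), while that over all genes rose to 1042. It was 13 with trend and robust eBayes (788). On the arrays of the lower ceiling it fell to 15, while that over all genes rose to 936. The median over all genes moved by over 0.1 with centring, to -0.0052, and with quantile normalization, to 0.02, while that of the entries was 0.28 and 0.27. The count of 0 called pairs was 1 with parents found by older symbol too (Plk-ps1), 2 after cyclic loess, 1 with array weights, 4 with array set as a block, 3 on the arrays of the lower ceiling and 0 to 2 on leaving out 1 replicate. Over 20 alternatives, 242 of 360 values of the called entries stayed past the threshold, 118 did not and none changed sign. That tally includes the mean over probes, the platform's symbols and probes with shared values left out. Each of them kept all 18 calls (848, 851 and 864 of all genes). They hardly touch the called entries, so the values kept there say little about robustness. Of 439 values of the 22 other named entries, 34 passed it and 27 changed sign.

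With a replicate block no entry and no gene was called by limma (35 entries and 2134 genes at an unadjusted p under 0.05), and none of the 14 pairs. The labels do not say whether equal numbers share an animal. Deviations of same-numbered arrays correlated at 0.05, 0.05 and -0.50, which cannot decide it with so few arrays. The block also removes degrees of freedom, so whether it belongs in the fit is unknown. Where a cause is not named here, it was not tested. Signal over background is unknown, so dim entries have no detection call.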
